A study of Mus musculus with 13 samples.

Results

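The core circadian clock was followed in mouse liver tumours through 10 genes taken by name: Arntl, Clock, Npas2, Per1, Per2, Per3, Cry1, Cry2, Dbp and Tef. They are 10 of the 23361 gene symbols measured, and 9 of them passed the filter on low counts that left 15132 genes for testing; Npas2 did not pass. The tumours arose in Mst1-/-; Mst2Flox/Flox mice of a mixed C57BL/6 and 129Sv background that had received adenovirus expressing Cre, so that both treatment groups lacked Mst1 in the body and Mst2 in the liver cells that took up Cre. Hepatocellular carcinoma was followed by ultrasound, and the mice were then randomized to intravenous lipid nanoparticles. The siYap group (5 libraries) received siRNA against Yap for 9 days, and the siLuc group (8 libraries) received siRNA against luciferase, a gene mice do not have, for 9 days. Tumour RNA was sequenced, with 23637021 to 37043914 fragments per library. No source used here gives the age of the mice or the hour at which tumours were taken. The deposited library codes carry a digit (6, 7 or 8) and a number. Digit 6 covers siYap replicates 1 and 2 and siLuc replicates 1 and 2, digit 7 covers siYap replicates 3 and 4 and siLuc replicates 3 to 7, and digit 8 covers siYap replicate 5 and siLuc replicate 8. What the digit stands for is not stated. Libraries also share numbers: siYap replicates 1 and 2 carry 90, siYap replicates 3 and 4 carry 99, siLuc replicates 1 and 2 carry 89, and siLuc replicates 5 to 7 carry 96. The number may mark an animal, and the p-values below measure the spread between libraries.

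In mammals the protein products of Arntl (also called Bmal1) and Clock, or its paralog Npas2, pair and bind E-boxes, and so switch on Per1, Per2, Per3, Cry1, Cry2, Dbp and Nr1d1. Per and Cry proteins then hold the pair back, while Nr1d1 and Nr1d2 repress Arntl through RORE sites, where Rora and Rorb activate. Dbp, Tef and Hlf are the PAR bZIP factors, which activate genes through D-boxes and pass the rhythm on to liver metabolism. In mouse liver Arntl RNA peaks at the opposite time of day from Dbp RNA, so the level of one beside the other describes the state of the cycle.

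Promoter sequences of the members are shown because the members move together or in opposite directions, and their starts carry some of the elements named above. Windows of 250 bases before to 50 bases after the start of transcription were read from RefSeq on GRCm38.p6, and 9 members matched, with 14 windows. The letters searched on both strands were CACGTG for the E-box, CACGTT for its variant, TTATGTAA and TTACGTAA for the D-box, and the RORE by name. Capitals below mark the matches, and each line reads 5′ to 3′ along the gene. The Arntl window shown lies at chr7:113207261-113207560 on the plus strand, and its capitals are a RORE whose first base is 26 bases after the start. The Per1 window shown lies at chr11:69098699-69098998 on the plus strand, with an E-box beginning 166 bases upstream. The Per3 window lies at chr4:151044616-151044915 on the minus strand, with 2 D-boxes beginning 205 and 158 bases upstream. The Cry1 window lies at chr10:85185005-85185304 on the minus strand, with the E-box variant beginning 79 bases and the E-box 60 bases upstream.
Arntl: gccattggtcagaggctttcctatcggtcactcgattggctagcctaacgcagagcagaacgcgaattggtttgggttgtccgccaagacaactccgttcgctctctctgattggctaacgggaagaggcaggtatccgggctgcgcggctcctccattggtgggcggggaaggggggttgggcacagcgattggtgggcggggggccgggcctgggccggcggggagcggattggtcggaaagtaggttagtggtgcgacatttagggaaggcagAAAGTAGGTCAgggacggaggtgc
Per1: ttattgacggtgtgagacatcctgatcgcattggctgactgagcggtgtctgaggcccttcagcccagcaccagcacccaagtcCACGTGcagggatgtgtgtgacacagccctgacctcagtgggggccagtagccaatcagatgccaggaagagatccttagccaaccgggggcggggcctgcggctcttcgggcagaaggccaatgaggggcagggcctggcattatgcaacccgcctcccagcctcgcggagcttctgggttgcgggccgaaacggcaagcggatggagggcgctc
Per3: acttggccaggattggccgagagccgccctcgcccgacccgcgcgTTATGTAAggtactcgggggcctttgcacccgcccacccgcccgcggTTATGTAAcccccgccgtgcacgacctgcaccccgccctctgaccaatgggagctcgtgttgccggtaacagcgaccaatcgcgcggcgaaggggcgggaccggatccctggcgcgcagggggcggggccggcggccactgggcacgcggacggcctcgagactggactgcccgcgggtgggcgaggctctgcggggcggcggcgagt
Cry1: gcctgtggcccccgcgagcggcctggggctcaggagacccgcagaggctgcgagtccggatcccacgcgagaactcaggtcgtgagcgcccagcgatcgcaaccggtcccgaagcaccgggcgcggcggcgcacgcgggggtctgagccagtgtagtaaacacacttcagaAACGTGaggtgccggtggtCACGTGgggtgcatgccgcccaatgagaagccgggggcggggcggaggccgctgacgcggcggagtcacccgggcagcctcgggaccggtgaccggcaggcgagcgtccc

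Both Tef windows also held an E-box, beginning 127 and 138 bases upstream, and the Cry2 window held the E-box variant 166 bases upstream. The windows of Dbp, Clock and Npas2 held none of these letters. Arntl and Per1 each had another window, not printed, that held none either (chr7:113207215-113207514 and chr11:69099902-69100201). Per2 had no window. Among the 32851 promoter windows of the table, 7.15% held the E-box, 4.68% its variant, 1.06% a D-box and 0.384% a RORE. These are matches of letters, not sites shown to be bound.

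Yap1, the targeted gene, was lower in the siYap libraries without overlap. It lay between 2.23 and 4.17 FPKM (fragments scaled to transcript length and sequencing depth) in siYap libraries and between 8.10 and 11.9 FPKM in siLuc libraries, a log2 fold change of -1.58 ± 0.17 (SE, adjusted p = 2.36e-05). Some libraries stood apart. The ribosomal precursor Rn45s, a sign of RNA composition, stood at 1160 and 1882 CPM (counts scaled to library size) in siYap replicates 1 and 3 and between 479.5 and 811.8 in the other libraries, and 4 genes of the Y chromosome held 28874 fragments in siLuc replicate 8 and 11 or fewer in the other libraries. Digit 8 holds 1 siYap library, with 7 such fragments, against that 1 siLuc library. Treatment and sex, as read from these genes, therefore cannot be told apart with digit 8. A digit 8 difference also has no replicate and rests on a library that stands apart. Hepatocyte genes such as Ttr and Apoa1 were abundant, at 1845 FPKM or more and 1668 FPKM or more in each library.

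Levels of several clock genes varied with the digit of the library code. Arntl was high in digit 6 libraries and low in digit 7 libraries of both treatments, while Per1, Per2, Per3, Dbp and Tef ran the other way. This contrast was known when the genes were chosen, so it is described here without a test. Arntl stood at 1.48 and 2.59 FPKM in siYap digit 6 libraries and at 0.385 and 0.424 FPKM in siYap digit 7 libraries. In siLuc libraries it stood at 9.21 and 9.59 FPKM with digit 6 and between 0.305 and 0.601 FPKM with digit 7. The digit 7 mean was thus 0.199 of the digit 6 mean among siYap libraries and 0.0501 of it among siLuc libraries, and the values of the digits did not overlap in either treatment. The digit 8 libraries lay between, at 1.11 FPKM in siYap replicate 5 and 3.35 FPKM in siLuc replicate 8.

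**Figure D1:**
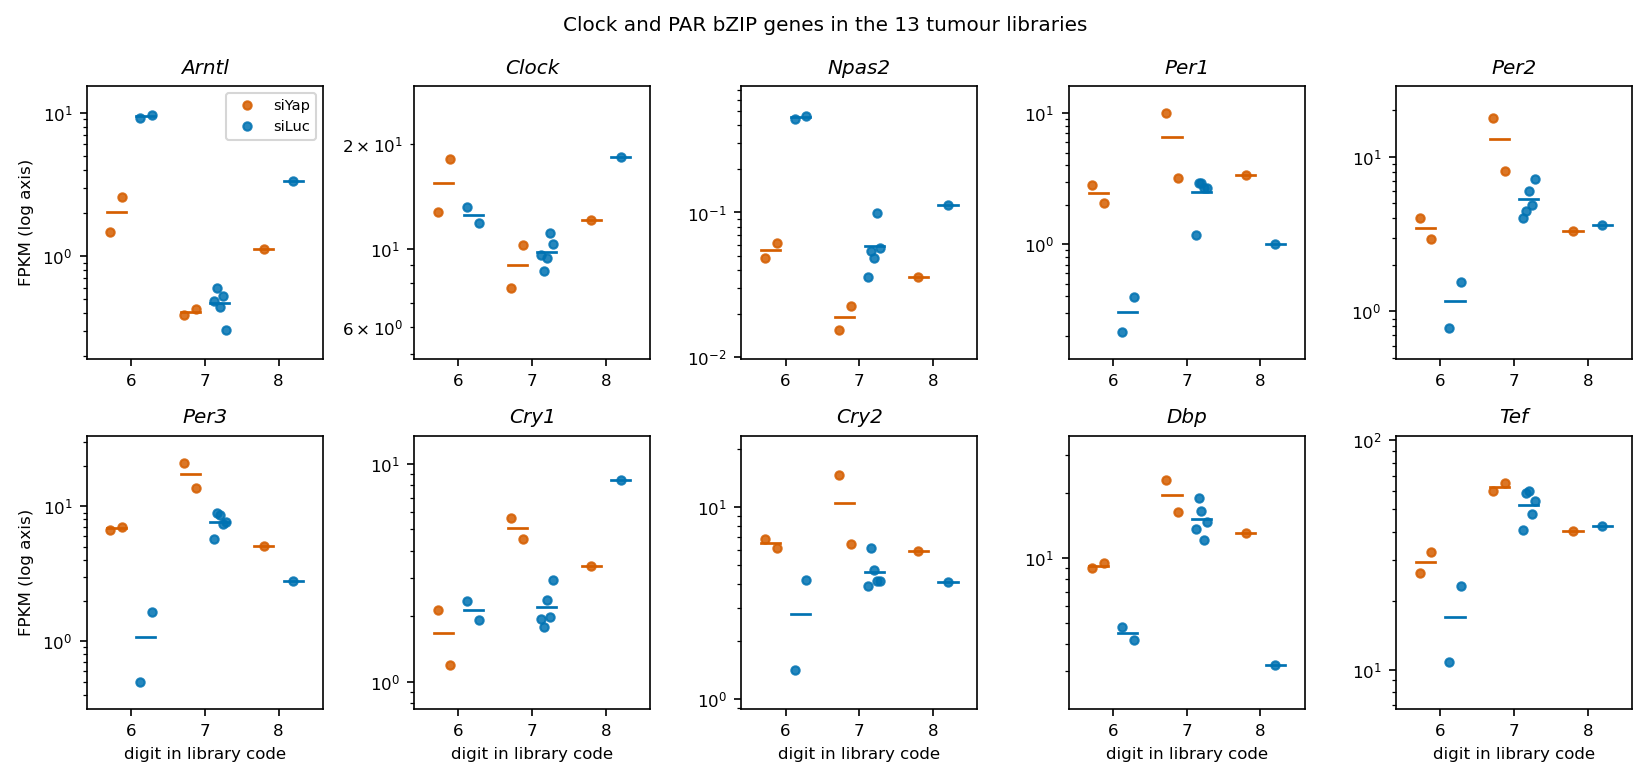
Level of each of the 10 genes in FPKM (log axis, own scale per panel) against the digit of the library code, with 1 point per library (siYap left, siLuc right within a digit) and a bar at the mean. Arntl is high with digit 6 and low with digit 7, most of all in siLuc libraries, and Per1, Per2, Per3, Dbp and Tef run the other way.

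Per3 showed the mirror image. It stood at 6.64 and 7.08 FPKM in siYap digit 6 libraries and at 20.8 and 13.8 FPKM in siYap digit 7 libraries, against 0.503 and 1.64 FPKM in siLuc digit 6 libraries and 5.73 to 8.93 FPKM in siLuc digit 7 libraries. Its digit 7 mean was 2.52 times the digit 6 mean in siYap libraries and 7.14 times in siLuc libraries. Per1 had quotients of 2.71 and 8.19 in siYap and siLuc libraries, Per2 of 3.74 and 4.53, Dbp of 2.13 and 3.39, and Tef of 2.13 and 3.08. Cry2 varied less, with quotients of 1.62 and 1.65. Cry1 was 3.03 times higher in digit 7 than in digit 6 among siYap libraries and 1.03 times among siLuc libraries. Clock, which in mouse liver cycles little, was lower with digit 7, at 0.583 and 0.785 of its digit 6 mean.

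Without overlap between the digits, 6 of the 9 tested members lay higher with digit 7 in siYap libraries (15.4% of all tested genes did) and 5 of 9 in siLuc libraries (10.1% of all tested genes). Arntl and Clock lay lower with digit 7 without overlap in both treatments, where 13.2% of all tested genes did so among siYap libraries and 9.5% among siLuc libraries. On the log2 CPM scale, the digit 7 minus digit 6 difference of Arntl was -2.31 in siYap and -4.26 in siLuc libraries, and the median size of the difference over all tested genes was 0.25 and 0.26. Each digit 6 group carries 1 number (90 for siYap, 89 for siLuc), and so does the siYap digit 7 group, so that digit and number cannot be told apart there.

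The quotient of Dbp over Arntl, both in FPKM, puts the 2 sides of the loop into 1 value per library. In siYap libraries it was 6.07 and 3.65 with digit 6, 59.8 and 38.5 with digit 7, and 11.8 with digit 8. In siLuc libraries it was 0.519 and 0.436 with digit 6, between 23.0 and 48.2 with digit 7, and 0.955 with digit 8. The siYap quotients lay above the siLuc quotients without overlap in digit 6, and in digit 7 the siYap value of 38.5 lay within the siLuc range. Per3 over Arntl was higher in the siYap libraries without overlap in digits 6 and 7, and in the single digit 8 pair it was also higher. The values were 4.48 and 2.73 against 0.0546 and 0.171 with digit 6, 54.2 and 32.5 against 11.8 to 24.9 with digit 7, and 4.53 against 0.841 with digit 8.

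**Figure D2:**
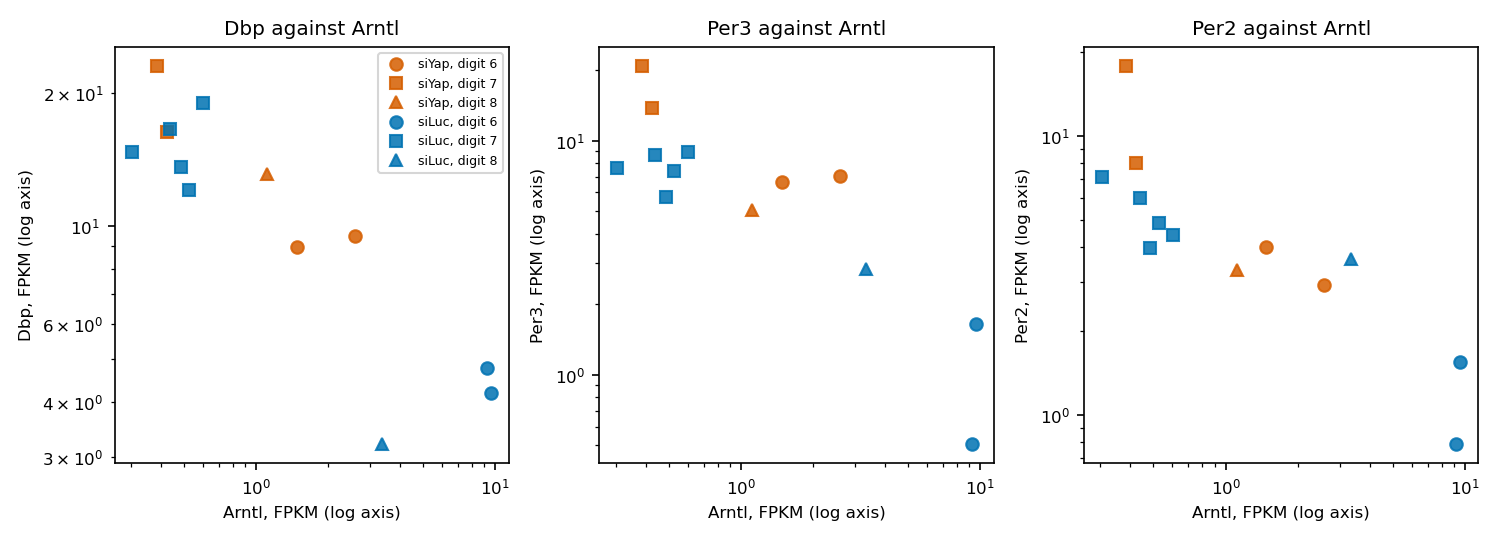
FPKM of Dbp, Per3 and Per2 (vertical, log axis) against FPKM of Arntl (horizontal, log axis), 1 point per library, coloured by treatment and shaped by digit. Libraries with little Arntl have much Dbp, Per3 and Per2, and the digit 6 siLuc libraries lie at the lower right, with 9.21 and 9.59 FPKM of Arntl.

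Set against each other with no regard to the digit, the treatments differed in 1 of the 9 tested clock genes. Cry2 was higher in siYap libraries, and the other 8 members, with log2 fold changes from -1.30 for Arntl to 1.34 for Per1, did not pass an adjusted p of 0.05 in edgeR's quasi-likelihood test. Of all tested genes, 30.8% were called in this comparison, a larger share than among the members. The median log2 fold change was 0.34 over the 9 members and -0.0026 over all tested genes. The siYap and siLuc libraries overlapped for each of the 10 members, where 5.57% of all tested genes had all siYap libraries above and 5.66% all siYap libraries below the siLuc libraries. In bulk tumour RNA, fewer cells of a type and less RNA per cell cannot be told apart.

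With the digit as a term in the same test, 6 of 9 members were called, against 33.6% of all tested genes. Arntl was lower in siYap libraries, and Per1, Per2, Per3, Cry2 and Dbp were higher (16.2% of all tested genes were called lower and 17.4% higher). Arntl changed by -1.16 ± 0.31 on the log2 scale (SE, adjusted p = 0.0122), against -1.30 ± 0.94 (adjusted p = 0.311) without the term. Clock (adjusted p = 0.855), Cry1 (0.459) and Tef (0.107) were not called. The digit term was an alternative to the comparison without covariates, and the digit was known to track these genes when it was listed. DESeq2 with the digit as a term called the same 6 members, as did edgeR without the digit 8 libraries. The 33.6% belongs to the edgeR fit over 13 libraries, and the shares of these other fits are not given here.

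**Figure D3:**
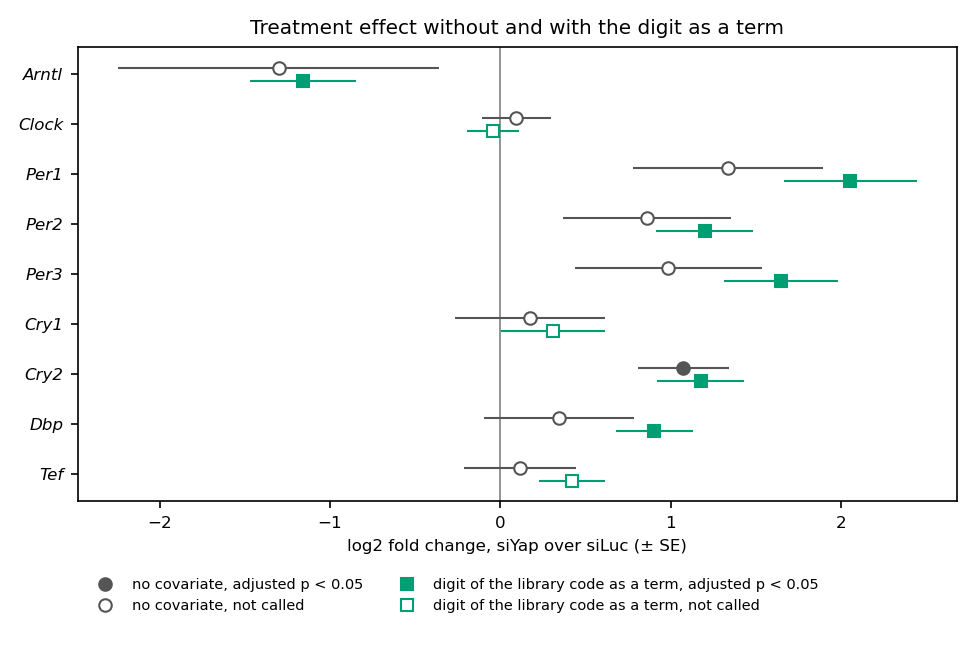
Log2 fold change of siYap over siLuc (horizontal, with bars of 1 SE) for the 9 tested members, fitted over 13 libraries with no covariate (circles) and with the digit of the library code as a term (squares), filled where the adjusted p was under 0.05. Only Cry2 is filled without the term, and Arntl, Per1, Per2, Per3, Cry2 and Dbp are filled with it.

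A pair of libraries bore on these calls. The siYap replicates 1 and 3, which had the highest ribosomal precursor, are 1 each of the digits 6 and 7. Leaving out both, the comparison without covariates called 0 of 10 members at an adjusted p under 0.05, with 1 of 10 at an unadjusted p under 0.05 (33.3% of genes), and the log2 fold change of Cry2 was 0.65 (adjusted p = 0.103). With the digit as a term and without both, 5 of 10 members were called, namely Arntl, Npas2, Per1, Per3 and Dbp. Per2 then stood at 0.64 (adjusted p = 0.0956) and Cry2 at 0.72 (adjusted p = 0.0758). With that term over all 13 libraries, 33.6% of all tested genes were called, and the share without both is not given here. Npas2 did not pass the filter over 13 libraries. It passed here through siLuc libraries, where it was high, so its call adds no support. Without siYap replicate 3 alone, the call of Per2 also ended with the digit as a term, at 0.93 (adjusted p = 0.0558). Over the alternatives tried, the adjusted p of Cry2 ran from 0.000869 to 0.326 without the digit as a term. With the digit as a term it ran from 0.000152 to 0.0758 for Cry2, from 0.000286 to 0.0956 for Per2 and from 0.00204 to 0.0422 for Arntl. The part of RNA composition in these values was not tested.

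Among the activators, Arntl (chromosome 7, 113207465 to 113314126, plus strand; all positions are of the GENCODE annotation on GRCm38) was the member whose level varied most. It averaged 1.20 ± 0.91 FPKM in siYap libraries (SD, n = 5) and 3.06 ± 4.04 FPKM in siLuc libraries (SD, n = 8), on 29 to 1105 fragments. Its highest siLuc library was 31.5 times its lowest, and its highest siYap library 6.73 times its lowest. Within the digits 6, 7 and 8, the siYap minus siLuc difference in mean log2 CPM was -2.17, -0.22 and -1.56, so the digit 7 libraries of the treatments lay close together.

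Clock (chromosome 5, 76209868 to 76304792, minus strand), the partner of Arntl, averaged 12.2 ± 3.85 FPKM in siYap libraries and 11.6 ± 3.08 FPKM in siLuc libraries (SD, n = 5 and 8). The siYap libraries stood at 12.8, 18.2, 7.75, 10.3 and 12.1 FPKM, within the siLuc range of 8.64 to 18.3 FPKM but for siYap replicate 3. Its log2 fold change was 0.10 ± 0.20 (SE, adjusted p = 0.749) and was negative without siYap replicate 2.

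Npas2 (chromosome 1, 39193731 to 39363236, plus strand), a paralog of Clock, was the least abundant member, with 2 to 79 fragments per library. It held 7, 9, 2, 3 and 5 fragments in siYap libraries, and 68 and 79 fragments in the siLuc digit 6 libraries against 6 to 20 in the other siLuc libraries. The pattern by digit followed that of Arntl in direction. With no filter on low counts its log2 fold change was -2.11 ± 0.74 (SE, adjusted p = 0.0469), and -2.19 ± 0.45 with the digit as a term (adjusted p = 0.00260).

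The Period genes encode proteins that enter the nucleus with Cry proteins and hold back the Arntl and Clock pair. Per1 (chromosome 11, 69095217 to 69109960, plus strand) stood at 2.81, 2.08, 10.05, 3.20 and 3.35 FPKM in siYap libraries. In siLuc libraries its lowest, median and highest values were 0.212, 1.94 and 2.95 FPKM. The groups overlapped, since the siLuc digit 7 libraries reached the level of the siYap digit 6 libraries. The siYap libraries lay above the siLuc libraries without overlap in digits 6 and 7, by 3.13 and 1.24 in mean log2 CPM, and the single digit 8 pair differed by 1.73. The log2 fold change was 1.34 ± 0.56 (SE, adjusted p = 0.0824), and 2.06 ± 0.39 with the digit as a term (adjusted p = 0.00203).

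Per2 (chromosome 1, 91415982 to 91459324, minus strand) stood at 4.004, 2.92, 17.8, 8.02 and 3.31 FPKM in siYap libraries, and its lowest, median and highest siLuc values were 0.786, 4.20 and 7.16 FPKM. The siYap values lay above the siLuc values in the digits 6 and 7, by 1.72 and 1.19 in mean log2 CPM, and in digit 8 the siYap library was slightly below the siLuc library (-0.11). The log2 fold change was 0.86 ± 0.49 (SE, adjusted p = 0.197), and 1.20 ± 0.28 with the digit as a term (adjusted p = 0.00677). Without siYap replicate 3, the library with 17.8 FPKM, the value without the digit was 0.25 (adjusted p = 0.728).

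Per3 (chromosome 4, 151003652 to 151044665, minus strand), whose promoter carries the pair of D-boxes printed above, averaged 10.7 ± 6.59 FPKM in siYap and 5.41 ± 3.31 FPKM in siLuc libraries (SD, n = 5 and 8). The siYap libraries were higher without overlap in digits 6 and 7, by 2.98 and 1.14 in mean log2 CPM, and the single digit 8 pair differed by 0.85. The log2 fold change was 0.99 ± 0.55 (SE, adjusted p = 0.186), and 1.65 ± 0.33 with the digit as a term (adjusted p = 0.00284).

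The cryptochromes are the partners of the Period proteins in the repressor complex. Cry2 (chromosome 2, 92403646 to 92434043, minus strand) stood at 6.86, 6.13, 14.7, 6.40 and 5.90 FPKM in siYap libraries, and its lowest, median and highest siLuc values were 1.42, 4.12 and 6.14 FPKM. Only siLuc replicate 4, the highest of its group, reached into the siYap range. The log2 fold change was 1.07 ± 0.27 (SE, adjusted p = 0.00751), and the siYap libraries were higher without overlap in digits 6 and 7, by 1.48 and 1.19 in mean log2 CPM. The single digit 8 pair differed by 0.47. Cry2 shares 295 exonic bases with D930015M05Rik on the opposite strand, which rose by 1.61 (adjusted p = 0.00480). No source used here says whether the counting used strand, so the Cry2 values are uncertain to that extent.

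Cry1 (chromosome 10, 85131700 to 85185064, minus strand) did not keep 1 direction across the digits. It stood at 2.14 and 1.20 FPKM in siYap and 2.35 and 1.93 FPKM in siLuc libraries with digit 6, and the values overlapped. With digit 7 it stood at 5.61 and 4.51 FPKM in siYap libraries and between 1.79 and 2.92 FPKM in siLuc libraries, without overlap. With digit 8 it was 3.39 FPKM in siYap replicate 5 and 8.39 FPKM in siLuc replicate 8, its highest value. The mean log2 CPM differences were -0.38, 1.19 and -1.29, and over all libraries the log2 fold change was 0.17 ± 0.44 (SE, adjusted p = 0.789).

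Of the PAR bZIP factors, Dbp (chromosome 7, 45705088 to 45710203, plus strand), a direct output of the Arntl and Clock pair, stood at 8.98, 9.47, 23.0, 16.3 and 13.1 FPKM in siYap libraries. In siLuc libraries its lowest, median and highest values were 3.20, 12.8 and 19.0 FPKM. The siYap libraries were higher without overlap with digit 6, by 1.08 in mean log2 CPM, while with digit 7 they differed by 0.35 and overlapped. The single digit 8 pair differed by 2.03. The log2 fold change was 0.34 ± 0.44 (SE, adjusted p = 0.577), and 0.90 ± 0.23 with the digit as a term (adjusted p = 0.00852). Dbp shares 539 exonic bases with Sphk2 on the opposite strand, which had 4.94 to 10.4 FPKM in siYap and 5.10 to 7.19 FPKM in siLuc libraries (adjusted p = 0.284).

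Tef (chromosome 15, 81802421 to 81826863, plus strand) was the most abundant member, at 44.9 ± 17.1 FPKM in siYap and 42.2 ± 17.4 FPKM in siLuc libraries (SD, n = 5 and 8). Its siYap values were 26.5, 32.4, 60.3, 65.4 and 40.1 FPKM, and its lowest, median and highest siLuc values were 10.8, 45.1 and 60.1 FPKM. Its differences within the digits were 0.99, 0.26 and -0.07 in mean log2 CPM, and its log2 fold change was 0.12 ± 0.33 (SE, adjusted p = 0.813). Tef shares 193 exonic bases and Arntl 33 with antisense genes that were not analysed here. In order of mean FPKM over the siYap libraries, Tef was followed by Dbp, Clock, Per3, Cry2, Per2, Per1, Cry1, Arntl and Npas2. From Dbp down to Cry1, neighbours in that order differed by less than the larger of their SDs.

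**Figure D4:**
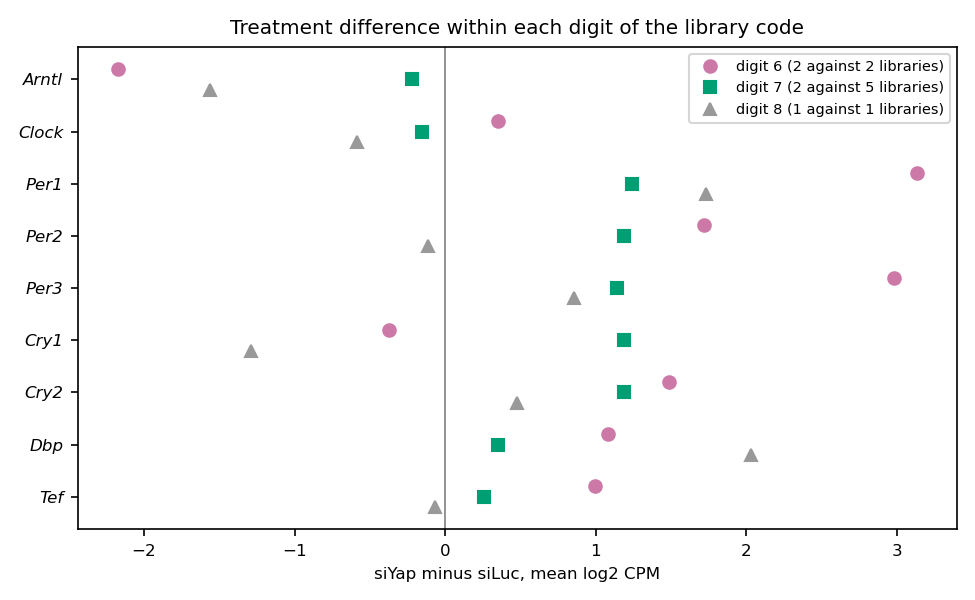
Difference in mean log2 CPM, siYap minus siLuc (horizontal), for each tested member within digit 6 (2 against 2 libraries), digit 7 (2 against 5) and digit 8 (1 against 1). Per1, Per3 and Cry2 are to the right of 0 in each digit, Arntl is to the left in each, and Cry1 lies at 1.19 with digit 7 and at -0.38 and -1.29 with digits 6 and 8.

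Within each of the digits, 3 of the 9 tested members (Per1, Per3 and Cry2) were higher in siYap libraries, without overlap in digits 6 and 7 and by the order of the single pair in digit 8, where 9.36% of all tested genes were. The digits were also fitted one at a time. With digit 7 alone, 2 siYap against 5 siLuc libraries, 5 of 9 members were called higher, namely Per1, Per2, Per3, Cry1 and Cry2 (13.1% of all tested genes were called higher, and 24.1% in either direction). Cry1 had the log2 fold change 1.22 ± 0.23 (SE, adjusted p = 0.00424) there. Arntl, at -0.23 ± 0.39 (adjusted p = 0.696), and Dbp, at 0.39 ± 0.21 (adjusted p = 0.203), were not called. The siYap libraries here are replicates 3 and 4, and they differed in Per1 and Cry2. Per1 stood at 10.05 and 3.20 FPKM in them, beside at most 2.95 FPKM in siLuc digit 7 libraries. Cry2 stood at 14.7 and 6.40 FPKM, beside at most 6.14 FPKM. With digit 6 alone, 2 against 2 libraries, edgeR called 0 of 10 members and 0.252% of all tested genes. At an unadjusted p under 0.05 it had 7 of 10 members (Arntl, Npas2, Per1, Per2, Per3, Cry2 and Dbp) and 12.8% of genes. Npas2 passed the filter there through the siLuc libraries, with 68 and 79 fragments beside 7 and 9 in siYap libraries. Its low siYap value therefore adds no support to that count. Each treatment in digit 6 carries 1 number, so treatment and number cannot be told apart there. In digit 7 both siYap libraries carry the number 99 and the siLuc libraries carry others. The siYap side of the digit 7 fit thus rests on 1 number.

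Whether the treatment difference itself differed between digits 7 and 6 was tested by the interaction of treatment and digit over the 11 libraries with those digits. By edgeR 0 of 9 members were called, as were 2 of 15194 genes (0.0132%), and 4 of 9 members had an unadjusted p under 0.05 (6.38% of genes did). Those were Arntl, Cry1, Per3 and Per1. The Arntl difference was 1.93 ± 0.46 less negative in digit 7 than in digit 6 on the log2 scale (SE, adjusted p = 0.400), and the Cry1 difference was 1.61 ± 0.40 more positive (adjusted p = 0.443). Per3 had an interaction of -1.54 ± 0.55 (adjusted p = 0.599), and Per1 of -1.73 ± 0.74 (adjusted p = 0.741). DESeq2 called Arntl (adjusted p = 0.0317) and Cry1 (adjusted p = 0.0320), 2 of 9 members, and 0.717% of genes. Over the alternatives, the adjusted p of the interaction ran from 0.0317 to 0.808 for Arntl and from 0.0320 to 0.665 for Cry1.

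The spread within a number was set beside the spread within a treatment. The numbers compared hold 2 or 3 libraries of the same digit, while a treatment holds 5 or 8 libraries of differing digits. A smaller range within a number therefore cannot show that libraries are alike by number. For Arntl the range in log2 CPM was 0.79 and 0.09 within the siYap numbers 90 and 99, and 0.12 and 0.69 within the siLuc numbers 89 and 96, while it was 2.74 over the siYap and 4.85 over the siLuc libraries. Dbp ranged over 0.28 and 0.49 within the siYap numbers and 0.04 and 0.47 within the siLuc numbers, against 1.54 and 2.57 over the treatments. Other members ranged more widely within a number. Per1, at 1.64, Cry2, at 1.18, and Per2, at 1.14, had wide ranges within number 99, where siYap replicate 3 lay above replicate 4. Within the siLuc number 89, Per3 ranged over 1.66, Cry2 over 1.28 and Tef over 0.97. Summing counts per number left 3 siYap and 5 siLuc values. Without the digit as a term, edgeR then called 1 of 10 members, Cry2 (adjusted p = 0.0260), and 3793 of 15623 genes. With the digit as a term, a fit added after seeing the data, 7 of 10 members were called (29.5% of genes). Those were Arntl, Npas2, Per1, Per2, Per3, Cry2 and Dbp. Npas2 had not passed the filter before summing and was highest in the siLuc libraries of number 89, so its call adds no support.

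Lists of other clock genes were read from the fit without the digit as a term. Of all tested genes, 16.0% were called higher and 14.8% lower in that fit, the shares against which each list count is read. Of 4 nuclear receptors of the loop that controls Arntl, 3 rose in siYap libraries and 1 was not called, with a median log2 fold change of 0.59. Rorb rose by 0.66 (adjusted p = 0.0105), Rora by 0.52 (adjusted p = 0.0358) and Nr1d1 by 1.34 (adjusted p = 0.0441). Nr1d1, which represses Arntl, stood at 7.97 ± 3.54 FPKM in siYap and 3.22 ± 1.59 FPKM in siLuc libraries (SD, n = 5 and 8), and it was lowest, at 0.297 FPKM, in siLuc replicate 8. Its digit 7 mean was 0.616 of its digit 6 mean in siYap and 0.781 in siLuc libraries, with overlap between these digits. In direction this went with Arntl and opposite to Dbp. Nr1d1 shares 263 exonic bases with Thra on the opposite strand, which rose by 0.92 (adjusted p = 0.0209). Nr1d2 had a log2 fold change of 0.03 (adjusted p = 0.944).

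Of 7 further repressors and PAR bZIP partners, 1 rose, 2 fell and 4 were not called (median 0.35), so that 3 of 7 were called where 30.8% of all tested genes were. Hlf, the third PAR bZIP factor, stood at 6.74 ± 1.71 FPKM in siYap and 2.62 ± 0.69 FPKM in siLuc libraries without overlap, a rise of 1.32 (adjusted p = 0.000711). Timeless, a replication fork protein named after a fly clock gene, fell by 1.20 (adjusted p = 0.00170) and Arntl2, the paralog of Arntl, fell by 1.47 (adjusted p = 0.0156). Nfil3, which represses at D-boxes, was not called (0.38, adjusted p = 0.253). Gm129, an older symbol of the repressor Ciart, was named after its values were seen, with 0.59 (adjusted p = 0.531), and 1.80 with the digit as a term (adjusted p = 0.0150). Its siLuc digit 7 mean was 19.7 times its digit 6 mean, and in siYap libraries the quotient was 2.66.

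**Figure D5:**
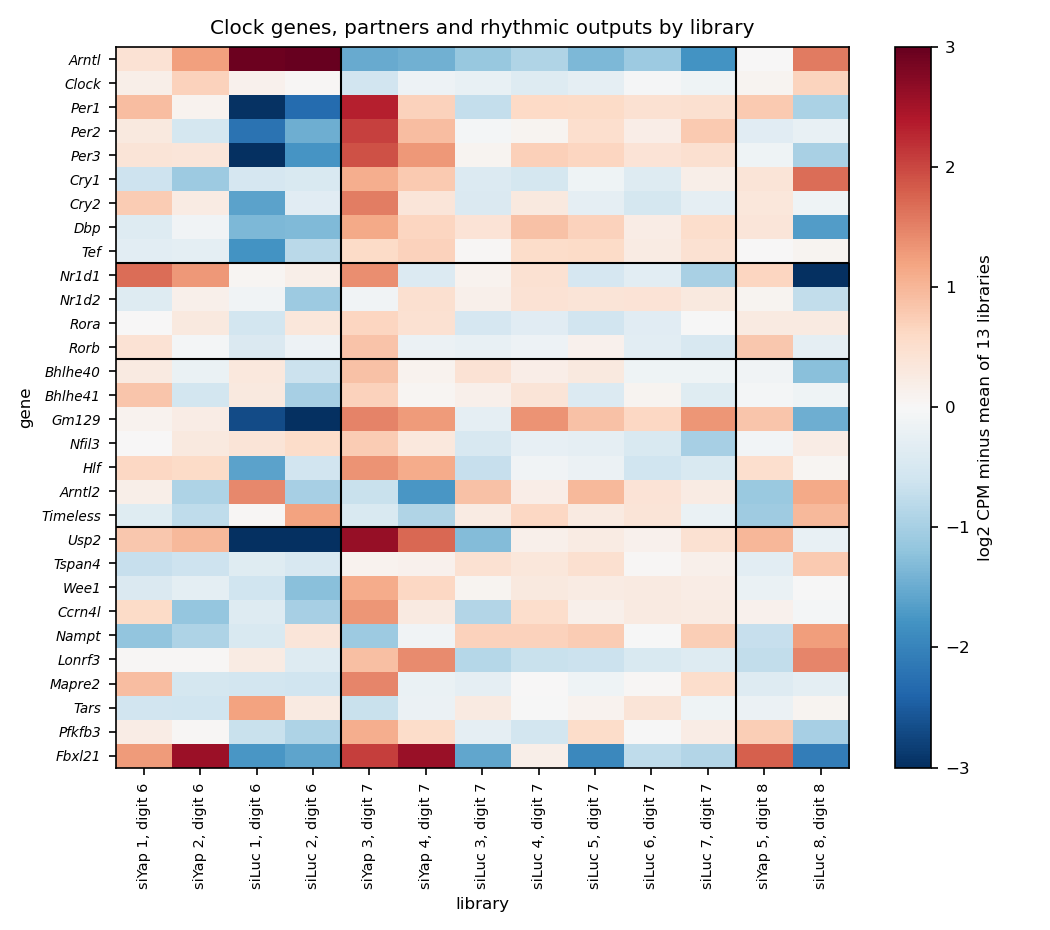
Log2 CPM of clock genes, partners and rhythmic output genes (rows) minus each gene's mean over the 13 libraries, by library (columns, ordered by digit, with siYap left of siLuc within a digit; the colour scale ends at -3 and 3). The digit 6 siLuc libraries show high Arntl beside low Per1, Per3, Gm129 and Usp2, and Fbxl21 is high in the siYap libraries of each digit.

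Of 12 kinases, phosphatases and ubiquitin ligases that act on clock proteins, 4 rose, 3 fell and 5 were not called (median -0.18), beside 16.0% higher and 14.8% lower among all tested genes. Fbxl21, a ligase for Cry proteins that also counts among the rhythmic outputs, rose most, at 7.46 ± 2.68 FPKM in siYap and 0.762 ± 0.50 FPKM in siLuc libraries without overlap (3.29, adjusted p = 3.31e-05). Its difference was 3.59, 3.33 and 3.88 in mean log2 CPM within the digits 6, 7 and 8, and its digit 7 mean was 1.25 and 1.81 times its digit 6 mean in siYap and siLuc libraries. The casein kinase subunit Csnk2a2 rose by 0.99 (adjusted p = 0.000297), Prkaa2 of the AMP-activated kinase by 0.86 (adjusted p = 0.000882) and Gsk3b by 0.56 (adjusted p = 0.0114). The 3 that fell, Csnk1e, Fbxw11 and Ppp1cb, are named after their values were seen, with -0.44, -0.41 and -0.51.

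Of 10 genes that follow the clock in many tissues, 3 rose, 2 fell and 5 were not called (median 0.50), beside the same 16.0% and 14.8%. Usp2, a deubiquitinase with a strong daily rhythm, stood at 8.53 ± 5.07 FPKM in siYap and 2.13 ± 1.39 FPKM in siLuc libraries without overlap (1.96, adjusted p = 0.0199). It also moved with the digit, since its digit 7 mean was 2.43 times its digit 6 mean in siYap libraries and 10.3 times in siLuc libraries. Nampt, which makes NAD, fell by 1.32 (adjusted p = 0.00210) and Tars, a tRNA ligase, fell by 0.75 (adjusted p = 0.0132). Fbxl21 and Pfkfb3 were the others that rose, and Pfkfb3, named after its values were seen, rose by 0.82 (adjusted p = 0.0266).

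Of 7 liver genes known to respond to PAR bZIP factors or to follow them, 4 rose and 3 were not called, where 16.0% of all tested genes were called higher. The median of 2.32, beside the -0.0026 of all tested genes, is the value of Cyp2b10, which was not called, had 0 to 69 fragments and stood at -0.16 with digit 7 alone. Por, which passes electrons to cytochrome P450 enzymes, stood at 167.1 ± 77.4 FPKM in siYap and 27.9 ± 8.61 FPKM in siLuc libraries without overlap (2.59, adjusted p = 9.56e-06). Alas1, the first enzyme of heme synthesis, rose by 1.93 (adjusted p = 0.000849), the nuclear receptor Nr1i3 by 2.77 (adjusted p = 0.00136) and the bile acid enzyme Cyp7a1 by 3.18 (adjusted p = 0.00143). With the digit as a term the count was again 4 of 7. The 4 rises without that term were larger than the values of Dbp (0.34), Tef (0.12) and Hlf (1.32), and a test of that contrast was not made. With the digit as a term Dbp stood at 0.90, Tef at 0.42 and Hlf at 1.42. Cyp2a4 and Cyp2a5 are near-identical copies, and their counts are uncertain.

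Other influences on Per1 and the clock were described beside it. Of 9 glucocorticoid responsive genes, 5 rose and 1 fell (median 0.66), beside 16.0% and 14.8% of all tested genes, and with the digit as a term 4 were higher and 1 lower. Tat rose by 1.56 (adjusted p = 3.86e-05), Zbtb16 by 2.37 (adjusted p = 0.000205) and Fkbp5 by 0.70 (adjusted p = 0.0208), while Sgk1 fell by 0.76 (adjusted p = 0.0163). Klf9, at 0.66, and Mt2, at 1.99, were the others that rose and are named after their values were seen. Mt2 stood at 1.05 with the digit as a term (adjusted p = 0.364) and at -0.79 with digit 7 alone, and its digit 8 pair was 1178 FPKM in siYap and 19.7 FPKM in siLuc. Tat was at 371.3 to 446.5 FPKM in siYap and 76.5 to 190.6 FPKM in siLuc libraries, and its digit 7 mean was 0.922 and 0.964 of its digit 6 mean. Of 8 heat and cold responsive genes (median -0.35) edgeR called 0, with 1 at an unadjusted p under 0.05 (42.6% of all tested genes). DESeq2 called 1 of these 8 heat and cold responsive genes and 35.1% of all tested genes. Their part in the values of the clock genes was not tested.

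Cell type markers also moved with treatment, where 16.0% of all tested genes were called higher and 14.8% lower. Of the hepatocyte markers 3 of 8 fell and 5 were not called, and their summed level was 8717 to 13140 FPKM in siYap and 11970 to 19860 FPKM in siLuc libraries. Fibroblast and stellate cell markers rose in 3 of 6 (152.3 to 633.3 against 49.4 to 280.0 FPKM summed), in 2 of 6 with the digit as a term, and endothelial markers in 1 of 5 (39.2 to 60.4 against 31.9 to 55.3 FPKM). Macrophage markers fell in 3 of 5 (21.4 to 45.0 against 43.0 to 99.7 FPKM), cholangiocyte markers in 2 of 5 (4.95 to 22.7 against 18.4 to 50.8 FPKM) and lymphocyte markers in 1 of the 4 tested (1.96 to 5.78 against 2.37 to 15.5 FPKM). In each of these pairs siYap is given before siLuc, and no marker list had a gene at 0 in every library. With digit 7 alone Col3a1 stood at -0.60, Dcn at -0.60 and Lrat at 0.06 on the log2 scale.

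Some markers moved with the digit as well. Among siYap libraries, 15.4% of all tested genes were higher and 13.2% lower with digit 7 without overlap. Among siLuc libraries the shares were 10.1% and 9.5%. Counts below that lie near these shares, such as those of the hepatocyte markers in siLuc libraries, are not read as a change. In siLuc libraries the summed lymphocyte markers were 2.37 to 3.035 FPKM with digit 6 and 7.55 to 15.5 FPKM with digit 7, and 3 of the 4 tested were higher with digit 7 without overlap. The fibroblast and stellate cell markers went opposite ways in the treatments. They summed to 203.5 to 633.3 FPKM with digit 6 and 152.3 to 156.3 FPKM with digit 7 in siYap libraries (4 of 6 lower with digit 7 without overlap), and to 107.5 to 136.3 and 179.1 to 280.0 FPKM in siLuc libraries (4 of 6 higher). The macrophage markers summed to 33.0 to 39.7 FPKM with digit 6 and 43.5 to 45.0 FPKM with digit 7 in siYap libraries, and to 43.0 to 61.7 and 67.1 to 99.7 FPKM in siLuc libraries. Cholangiocyte markers were lower with digit 7 without overlap in 4 of 5 genes among siYap libraries and in 1 of 5 among siLuc libraries, where 1 of 5 was higher. Of the hepatocyte markers, 2 of 8 were higher and 3 lower with digit 7 in siYap libraries, and 0 and 1 in siLuc libraries. Of the endothelial markers 4 of 5 were higher in siYap libraries and 1 of 5 was lower in siLuc libraries. The part of cell composition in the values of the clock genes was not tested.

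The genes whose pattern was most like that of Arntl were ranked by Pearson's r of log2 CPM after each treatment's mean was taken off, over 13 libraries and 11255 genes that averaged 1 FPKM or more. The libraries share digits and numbers, so r is a description with no test. The highest were Snx3 (0.93), Tsn (0.93), Rpe (0.92), Hnrnpc (0.92) and Chka (0.92). The lowest were Slc5a1 (-0.91), Olfr856-ps1 (-0.91), Ugt1a2 (-0.89), Slc22a4 (-0.89) and Fam76a (-0.89). Among the members r was -0.91 for Dbp, -0.90 for Per3, -0.89 for Per1, -0.88 for Per2 and -0.87 for Tef, and it was -0.49 for Cry2, -0.20 for Cry1 and 0.65 for Clock. Chka, the closest of the 5 to Arntl in the size of its change, averaged 23.4 and 48.4 FPKM in siYap and siLuc digit 6 libraries and 11.4 and 18.0 FPKM in siYap and siLuc digit 7 libraries.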

How the data were processed

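RNA of 13 tumours' libraries (5 siYap, 8 siLuc) was prepared with the ScriptSeq Complete Gold Kit and sequenced on a HiSeq2500, per the labels' protocols. Trimmomatic 0.30, TopHat2 2.0.8, Cufflinks and Cuffdiff 2.1.1 with the build mm10 are named in the submitters' processing notes, and no source used here gives their settings, the annotation or the strand handling. The authors deposited 1 table per library with the raw fragments of each gene, which are estimated counts without scaling, and its FPKM, per the file headers. Between 97.6% and 98.0% of the estimated counts were whole within 1e-06, and they were rounded. FPKM is per transcript length and depth, scaled by Cuffdiff per the file headers. Genes with a high-depth mark, 3 in number, were left out, and 21 genes with a failure mark in a library were kept; no member carried a mark. The FPKM table that covers the series was left aside.

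edgeR 4.0.16 (R 4.3.3, TMM, default low-count filter by group, robust quasi-likelihood test) was fitted over 13 libraries without covariates, and over 11 libraries for the interaction of treatment and digit. P-values were adjusted by Benjamini-Hochberg over all tested genes and called under 0.05, and the scripts were tested on simulated data. Alternatives used DESeq2 1.42.0, limma 3.58.1, other scalings and filters, the digit or the replicate number as a term, sums per number, and libraries left out. Log2 CPM used a prior count of 2. Named genes were the members, Yap1, up to 4 genes of each list with the smallest p, and the 5 highest and 5 lowest in likeness to Arntl, with names of the Rik and Gm kind passed over. The members and lists were chosen with earlier results of these data known, and 1 gene of a list is not reported here. The labels do not say whether libraries come from separate animals. Libraries of a group differed by more than sampling noise, with a chi-square over its degrees of freedom of 33.3 or more. Intervals from counting were not needed, since replicates give the error. Gene positions are from GENCODE release 21 of the mouse, GRCm38.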

Additional observations from a re-analysis of the deposited data

Results flagged for a closer look

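In 20 groups (10 genes in 2 treatments) the gap between the highest or lowest library and its nearest neighbour was set against the range of the group, and 4 values, in 2 libraries, lay farther out than Dixon's 95% limit. Chance gives about 1 such value in 20 groups, and genes of 1 library are not independent. Per1 in siYap replicate 3 stood at 10.05 FPKM, where the next siYap library had 3.35 FPKM. Cry2 in the same library stood at 14.7 FPKM, where the next siYap library had 6.86 FPKM. Clock in siLuc replicate 8 stood at 18.3 FPKM, where the next siLuc library had 13.2 FPKM. Cry1 in the same library stood at 8.39 FPKM, where the next siLuc library had 2.92 FPKM. The siYap replicate 3 also had the highest ribosomal precursor (1882 CPM) and siLuc replicate 8 is the only siLuc library with digit 8 and held 28874 fragments on 4 genes of the Y chromosome, where the other libraries held 11 or fewer. The part of either in the values was not tested.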

How the results depend on the processing

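Across all genes edgeR called 4668, and 3325 to 4633 with each library left out in turn, 38 with digit 6 alone, 2984 without siYap replicates 1 and 3, and 2362 at an adjusted p under 0.01. Among the members the count was 1, and 1 in each of the fits that left out a library, but 2 with no filter, 6 with the digit as a term, 5 with digit 7 alone, and 0 with digit 6 alone or without siYap replicates 1 and 3. The replicate numbers do not pair the samples, since deviations of same-numbered libraries correlated at -0.12, 0.127, 0.072, 0.118 and -0.0873, and 2 of 5 libraries correlated best with their own number. With the replicate number as a block over replicates 1 to 5, 2298 genes and 0 members were called. There 4 of 9 members had an unadjusted p under 0.05, as did 32.4% of all tested genes. With the digit as a term the members called were 6, beside 33.6% of all tested genes, and 6 to 7 with each library left out. The other fits with that term, added after seeing the data, gave 5 to 7. The interaction called 2 genes and 0 members by edgeR, 109 genes and 2 members by DESeq2, and 2 to 20 genes and 0 members with a library left out.

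Signs changed for values that were not called, and the cause was not tested. Tef ran from -0.044 to 0.22, Clock from -0.095 to 0.23 and Cry1 from -0.10 to 0.64 with a library left out. Clock was -0.042 with the digit as a term and -0.11 with digit 7 alone, and Cry1 was -0.39 with digit 6 alone and -0.0097 in counts summed per number. With the digit as a term, Clock ran from -0.16 to 0.076 with a library left out (0.076 without siLuc replicate 8, 0.055 without siYap replicate 3 and 0.074 without siYap replicate 5), and was 0.079 without siYap replicates 1 and 3 together and 0.077 without digit 8. The interaction of Cry2 ran from -0.79 to 0.47 and that of Per2 from -1.11 to 0.085 with a library left out. Scaling by DESeq2 size factors or the upper quartile moved the median of all genes from -0.0026 to -0.0046 and -0.0139. Depth limits Npas2, with 2 to 79 fragments per library.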
